A study of Mus musculus with 12 samples.

Results

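DNA replication and nucleotide supply genes were taken as a list of 49 genes chosen by function, and were followed in lung tissue of A/J mice. They run from the proteins that license replication origins to the enzymes that make deoxynucleotides. Of these genes, 48 had a probe set with a single gene symbol on the array (109 of 45101 probe sets), and each gene was read from its probe set with the highest mean over the 12 arrays. Chaf1a, the large subunit of chromatin assembly factor 1, had no such probe set and is not measured here. Affymetrix mouse genome arrays gave 4 groups of 3 arrays each. OVA/PM mice were sensitized with ovalbumin (OVA, 0.4 mg/kg intraperitoneally, day 0), challenged with it in the trachea (30 mg/kg, day 14) and then given ambient particulate matter (PM) from Baltimore, of which 50 µl at 10 mg/ml in PBS was aspirated. OVA mice received the same OVA doses without PM, PM mice received the same PM without OVA, and Control mice received PBS. All animals were male and, per the labels, 8 to 10 weeks old, and lungs were taken on the fourth day after the particles. Each array held total RNA of frozen lung, with 3 animals per group, so many cell types contribute to each value. The methods do not state whether these lungs were lavaged before freezing. A p-value here measures the spread between these animals.

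The values are log2 intensities that the authors computed, so a difference of 1 is a doubling of intensity. The arrays had medians between 4.84 and 5.03, and no pair was identical. A probe set was tested in a comparison where all 3 arrays of at least 1 of its groups reached 4.93, the median of all values. Of the 48 genes, 34 reached that level in all 12 arrays and 5 in none. Changes were tested with limma over all probe sets kept, and a gene passed where its adjusted p was under 0.05. In OVA/PM replicate 3 the spiked bacterial controls bioB and bioC read higher than in every other array (6.82 for the probe set BioC-5, against at most 2.77 elsewhere), so counts are also given without this array. The names OVA and PM carry a doubt. The study's account of lung transcripts gives particles the broader effect in naive mice, whereas far more probe sets differed from Control in the arrays titled OVA than in those titled PM. It also names cell cycle among the processes of its PM-regulated genes. Of the replication genes described below, 30 passed against Control in the arrays titled OVA and 0 in those titled PM. The titles were kept, and the groups are written as OVA-labelled and PM-labelled arrays. If the names were exchanged, every value of one would belong to the other, and the values of OVA/PM and Control would stand. The study counted macrophages in greater number in lavage fluid after OVA and not after PM. In the lung RNA here, 7 of 10 monocyte and macrophage markers passed as higher in the OVA-labelled arrays and 0 in the PM-labelled arrays. Marker RNA of lung tissue is a different measure from a lavage cell count. Markers of neutrophils, which the study counted in greater number in lavage fluid after PM, did not pass as higher in either group. Their median changes against Control were -1.54 in the PM-labelled arrays and -0.45 in the OVA-labelled arrays. None of these measures settles the names.

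Chromosomal DNA is copied once per cell cycle. In G1 the origin recognition complex, Cdc6 and Cdt1 load the ring of Mcm2 to Mcm7 onto DNA. Cdc45 and the GINS complex turn that ring into an active helicase at S phase, and the polymerases, the sliding clamp Pcna, its loader and the ligase follow. Ribonucleotide reductase, thymidylate synthase and thymidine kinase supply the precursors. Most cells of a resting adult lung do not divide, and transcription of many of these genes is known to depend on E2F factors at entry into S phase.

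Letters of the E2F site were more frequent around the starts of these genes than around those of other genes. The 8 letters TTTCCCGC, TTTCGCGC, TTTGCCGC and TTTGGCGC were searched on both strands, overlaps included, from 250 bases before to 50 bases after the annotated start in RefSeq promoters of build GRCm38.p6. At least 1 of them lay in 15 of the 39 genes with a promoter sequence (38.46%), against 560 of 17452 other protein-coding genes (3.21%) and 2.26% of all 32851 promoters. In 10 of the 15 genes a match lay before the start, and in Cdt1, Lig1, Mcm3, Pold1 and Pole2 matches lay only after it. The median GC content of the promoters was 61.33% for the 39 genes and 56.33% for the other protein-coding genes, and its part in that difference was not tested. The CCAAT box (CCAAT) was present in 58.97% of the 39 genes against 42.28% of the others, and the CHR element (TTTGAA or TTCGAA) in 20.51% against 20.23%. The following 4 promoter stretches are shown because their genes changed strongly in the arrays. They run 5′ to 3′ on the plus strand of GRCm38.p6, which is the strand of each gene, with the E2F letters in capitals. In Cdc6 the capitals are the reverse complement of a searched word, and in Mcm5 a word and a reverse complement overlap.
Uhrf1 (chr17:56304088-56304175): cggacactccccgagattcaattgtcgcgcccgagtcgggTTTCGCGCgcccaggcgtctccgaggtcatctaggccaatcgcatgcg
Hells (chr19:38930888-38930975): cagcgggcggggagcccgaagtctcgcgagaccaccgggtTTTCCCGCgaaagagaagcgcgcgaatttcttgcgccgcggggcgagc
Mcm5 (chr8:75109316-75109407): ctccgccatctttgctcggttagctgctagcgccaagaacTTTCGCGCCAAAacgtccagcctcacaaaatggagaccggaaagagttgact
Cdc6 (chr11:98907973-98908060): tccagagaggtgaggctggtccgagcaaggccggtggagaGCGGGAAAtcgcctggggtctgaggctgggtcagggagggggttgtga
The first capital stands 185, 62, 153 and 138 bases before the start of Uhrf1, Hells, Mcm5 and Cdc6. Such a match is a description of the letters and does not show that a factor binds there.

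Replication genes rose broadly in OVA/PM lungs. Of the 48 genes, 33 passed as higher than in Control, 0 passed as lower, 8 were tested without passing and 7 were not tested, whereas 10.9% of all probe sets tested passed as higher. Over all 22538 probe sets tested, 2450 passed as lower. The median change over the 48 genes was 0.94 on the log2 scale (range 0.04 to 3.67), or 0.78 when a group with all arrays under the level is set to it, against 0.04 over all 18193 genes with a single symbol. All 3 OVA/PM arrays lay above all 3 Control arrays for 39 genes, 35 of them among the 41 tested, where 21.3% of all probe sets tested did so. The 7 genes Cdc6, Gins2, Pole, Tk1, Uhrf1, Ccne2 and E2f8 could be tested only through their level in OVA/PM, as not all their Control arrays reached it. Such a filter favours a difference without forcing one, and the adjusted p-values given below for these genes carry that limit. Among the 34 genes at the level in all 12 arrays, 26 passed. In lung tissue of mixed cell types, more cells that express a gene and more RNA per cell cannot be told apart.

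The OVA-labelled arrays stood at a similar height. There 30 of the 48 genes passed as higher than in Control and 0 as lower, against 8.68% of all probe sets tested that passed as higher, with a median change of 0.89 (range 0.04 to 3.54, and 0.03 over all genes). Over all 22498 probe sets tested, 2373 passed as lower. Every OVA-labelled array lay above every Control array for 42 genes, 37 of them among the 39 tested, where 20.8% of all probe sets tested did so. Cdc6, Pole, Tk1, Uhrf1 and Ccne2 could be tested only through the OVA-labelled arrays, and of the 34 genes at the level in all arrays 26 passed. The count of 30 depended on single arrays: it was 10 without OVA replicate 3, 15 without OVA replicate 1 and 17 without Control replicate 2. The corresponding OVA/PM count stayed between 26 and 32 when any 1 of its 6 arrays was left out, and was 30 without OVA/PM replicate 3. Of the calls themselves, 8 of the 33 in OVA/PM (Cdc6, Gmnn, Prim1, Prim2, Pcna, Rfc3, Rpa2 and Dnmt1) and 20 of the 30 in the OVA-labelled arrays were lost at least once in this way. In the OVA-labelled arrays the calls for Mcm4, Pola1, Pold1, Pole2, Pcna, Rpa2 and Fen1 were each lost in 5 of 6 fits. Both comparisons use the same Control arrays.

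In the PM-labelled arrays, 0 of the 35 genes tested passed against Control by limma, 0 had an unadjusted p under 0.05, and 0.0719% of all probe sets tested passed in either direction. The median change over the 48 genes was 0.07, with a range of -0.54 to 0.58. The 95% interval lay within a log2 change of 1 in either direction for 32 of the 35 genes and within 0.5 for 21.

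**Figure D1:**
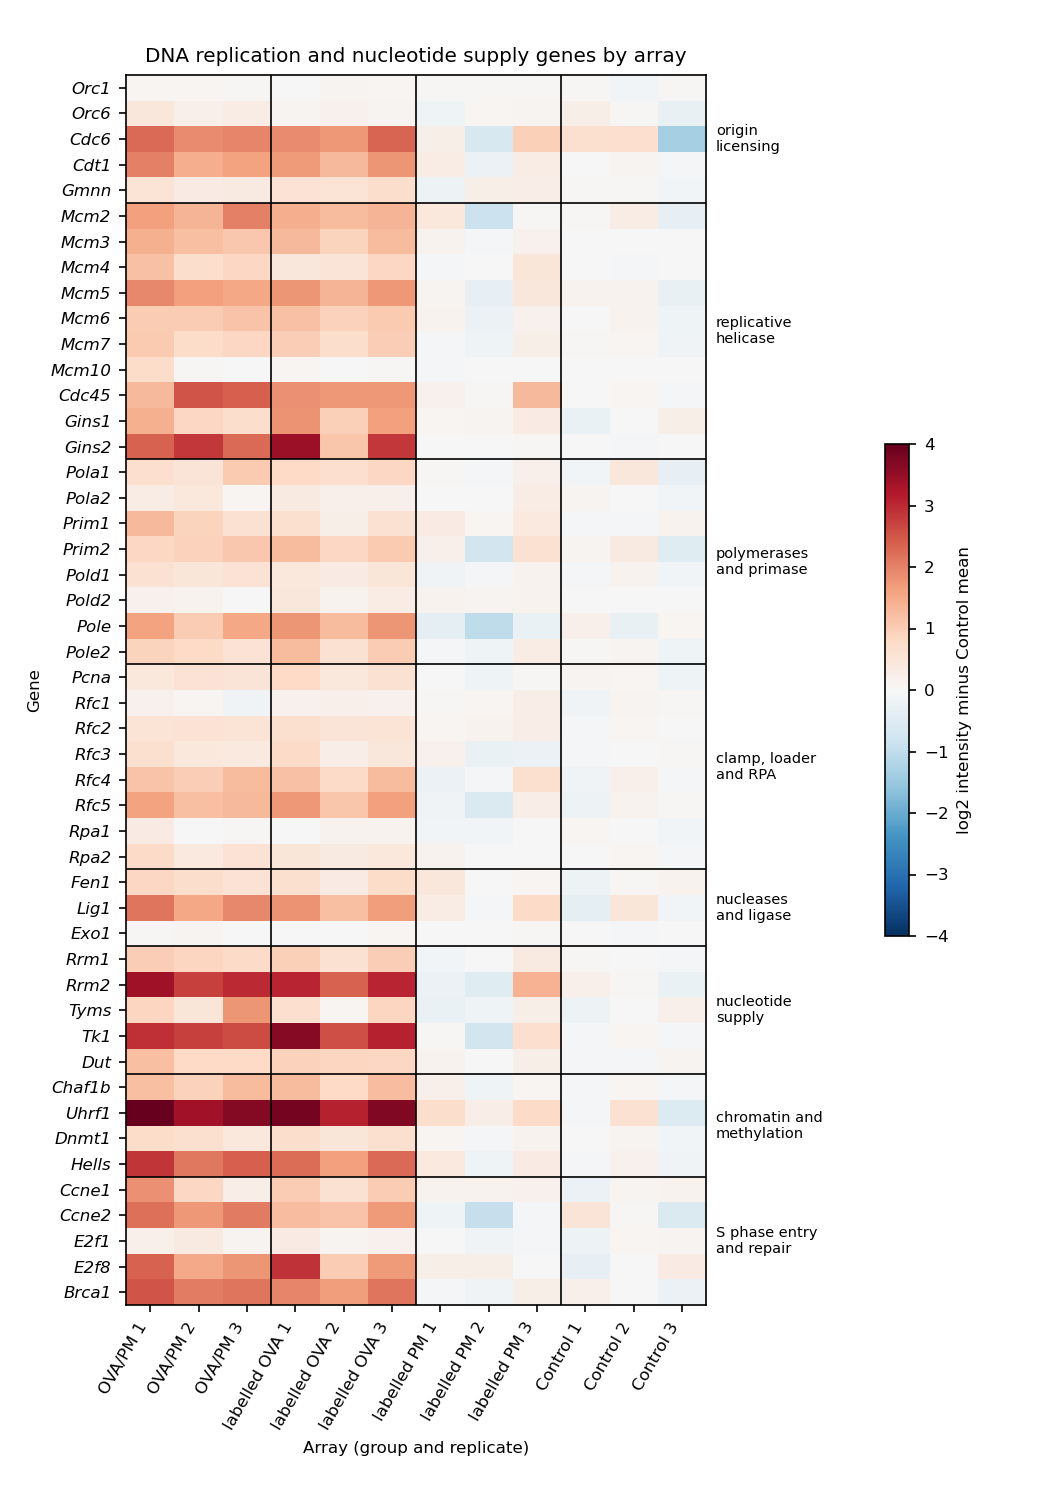
Log2 intensity of each of the 48 genes (rows, ordered by role) in each of the 12 arrays (columns), minus the Control mean of that gene, with red for higher and blue for lower. The OVA/PM arrays and the OVA-labelled arrays are red for most genes, while the PM-labelled arrays and the Control arrays stay pale, with Rrm2 and Cdc45 in PM replicate 3 among the exceptions.

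Origin licensing was led by its 2 loading factors. Cdt1, which brings the helicase ring to origins, read 9.79, 9.21 and 9.37 in OVA/PM, 9.47, 9.06 and 9.54 in the OVA-labelled arrays, 8.07, 7.53 and 8.06 in the PM-labelled arrays, and 7.74, 7.86 and 7.70 in Control. Both groups that received OVA by label lay wholly above the other arrays. The change was 1.69 in OVA/PM (SE 0.16, adjusted p = 0.00175 from limma) and 1.59 in the OVA-labelled arrays (SE 0.14, adjusted p = 0.00691). Cdc6, the ATPase that works with Cdt1, was more scattered. Its values were 6.99, 6.60 and 6.68 in OVA/PM, 6.62, 6.44 and 7.04 in the OVA-labelled arrays, 4.94, 4.06 and 5.66 in the PM-labelled arrays, and 5.36, 5.39 and 3.39 in Control. Control replicate 3 was the lowest array, and without it the OVA/PM change of 2.04 (SE 0.54, adjusted p = 0.0408 from limma) was 1.38. The call for Cdc6 was lost on leaving out any of the other 5 arrays (adjusted p up to 0.12 from limma), and in the OVA-labelled arrays it missed the threshold at a change of 1.98 (adjusted p = 0.0553). Gmnn, the inhibitor of Cdt1, passed at 0.41 in OVA/PM and 0.60 in the OVA-labelled arrays, although its OVA/PM call was lost whichever array was left out. Orc6, a subunit of the origin recognition complex, did not pass (0.31 and 0.13), and its subunit Orc1 lay between 3.01 and 3.22 in every array and was not tested.

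All 6 subunits of the Mcm2 to Mcm7 ring passed in OVA/PM and in the OVA-labelled arrays. In OVA/PM the changes were 1.67 for Mcm2, 1.24 for Mcm3, 0.91 for Mcm4, 1.70 for Mcm5, 1.05 for Mcm6 and 0.86 for Mcm7. In the OVA-labelled arrays they were 1.36, 1.15, 0.60, 1.62, 1.06 and 0.89 in the same order. There the call for Mcm4 was lost in 5 of 6 fits with 1 array left out (adjusted p up to 0.0829 from limma). Those for Mcm2 and Mcm7 were lost in 1 fit each. Mcm5 shows the pattern per array. It read 11.28, 11.01 and 10.90 in OVA/PM, 11.15, 10.74 and 11.09 in the OVA-labelled arrays, 9.47, 9.03 and 9.81 in the PM-labelled arrays, and 9.52, 9.50 and 9.08 in Control, with no overlap between the first 2 groups and the last 2 (OVA/PM change SE 0.16, adjusted p = 0.00171 from limma). Gins2, a subunit of the GINS complex that activates the ring, was under the test level in all Control and PM-labelled arrays, between 2.70 and 2.79. It reached 5.09, 5.55 and 4.99 in OVA/PM, at least 1.22-fold above Control when Control is set to the level (fitted change 2.48, SE 0.16, adjusted p = 0.000483 from limma), and 6.16, 3.83 and 5.57 in the OVA-labelled arrays, where 1 array under the level kept it from being tested. Cdc45, the partner of the ring, was not tested either, at 3.95, 5.18 and 5.05 in OVA/PM and 4.48, 4.38 and 4.38 in the OVA-labelled arrays, against 2.80, 2.68 and 3.94 in the PM-labelled arrays and 2.63, 2.73 and 2.58 in Control. Gins1, another GINS subunit, and Mcm10, which helps to start the helicase, lay below the level in all arrays.

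Among polymerases and primase, the catalytic subunit of the leading strand polymerase changed most. Pole read 6.36, 5.74 and 6.27 in OVA/PM, 6.51, 6.00 and 6.51 in the OVA-labelled arrays, 4.39, 3.74 and 4.47 in the PM-labelled arrays, and 4.94, 4.46 and 4.82 in Control. The change was 1.39 in OVA/PM (SE 0.21, adjusted p = 0.00741 from limma) and 1.60 in the OVA-labelled arrays (SE 0.19, adjusted p = 0.0105). Its subunit Pole2 passed at 0.75 and 0.96. Prim2, the large primase subunit, read 7.60, 7.68 and 7.83 in OVA/PM, 8.03, 7.59 and 7.79 in the OVA-labelled arrays, 6.94, 6.03 and 7.36 in the PM-labelled arrays, and 6.88, 7.10 and 6.29 in Control. Its OVA/PM change of 0.95 (SE 0.21, adjusted p = 0.0264 from limma) lost the call in 4 of the 6 fits with 1 array left out, with an adjusted p up to 0.0748. The small primase subunit Prim1 passed in OVA/PM (0.93) and missed in the OVA-labelled arrays (0.50, adjusted p = 0.0581), and Pola1, the catalytic subunit of polymerase alpha, missed in OVA/PM (0.74, adjusted p = 0.0727) and passed in the OVA-labelled arrays (0.77, adjusted p = 0.0488), where 5 of 6 fits with 1 array left out lost the call. Direct comparison gave no call between the 2 groups for either gene. Pold1, the catalytic subunit of polymerase delta, passed at 0.55 and 0.41. Its second subunit Pold2 (0.11 and 0.29) and the polymerase alpha subunit Pola2 (0.26 and 0.27) did not pass.

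Of the clamp loader, 4 of 5 subunits passed in OVA/PM and 3 in the OVA-labelled arrays. Rfc5 read 8.46, 8.06 and 8.13 in OVA/PM, 8.57, 7.96 and 8.50 in the OVA-labelled arrays, 6.71, 6.28 and 7.13 in the PM-labelled arrays, and 6.66, 6.99 and 6.90 in Control (OVA/PM change 1.37, SE 0.15, adjusted p = 0.00244 from limma). Rfc4 followed at 8.49, 8.32 and 8.61 in OVA/PM, 8.50, 8.12 and 8.60 in the OVA-labelled arrays, 7.11, 7.30 and 7.98 in the PM-labelled arrays, and 7.20, 7.53 and 7.29 in Control (1.13, SE 0.13, adjusted p = 0.00303 from limma). Both loader subunits separated OVA/PM from Control without overlap. Rfc2 (0.56 and 0.57) passed in both OVA/PM and the OVA-labelled arrays, and Rfc3 passed in OVA/PM at 0.48 and missed in the OVA-labelled arrays at 0.49. Rfc1, the largest subunit, changed by 0.04 (SE 0.12, adjusted p = 0.831 from limma) and 0.19, and did not pass. The clamp Pcna passed at 0.50 and 0.61, with the call lost on leaving out 1 array in 4 of 6 fits in OVA/PM and 5 of 6 in the OVA-labelled arrays. Of the single-strand binding protein RPA, the middle subunit Rpa2 passed at 0.59 and 0.43, whereas the large subunit Rpa1 did not (0.12 and 0.09). A second probe set of Rpa2 changed by 0.11 in OVA/PM and did not pass there, while it passed in the OVA-labelled arrays at 0.38. Differences between subunits were not tested as such.

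DNA ligase 1, which seals the fragments of the lagging strand, rose clearly. Lig1 read 8.67, 8.06 and 8.43 in OVA/PM, 8.33, 7.73 and 8.19 in the OVA-labelled arrays, 6.82, 6.46 and 7.28 in the PM-labelled arrays, and 6.13, 7.02 and 6.42 in Control (OVA/PM change 1.86, SE 0.26, adjusted p = 0.00611 from limma, and 1.56 in the OVA-labelled arrays). The flap endonuclease Fen1 had smaller differences, with 10.56, 10.41 and 10.29 in OVA/PM, 10.37, 10.05 and 10.45 in the OVA-labelled arrays, 10.17, 9.74 and 9.80 in the PM-labelled arrays, and 9.53, 9.77 and 9.86 in Control. Its change was 0.70 in OVA/PM (SE 0.12, adjusted p = 0.0125 from limma) and 0.57 in the OVA-labelled arrays (adjusted p = 0.0421), and the PM-labelled arrays overlapped with the OVA-labelled and the Control arrays. Exo1, an exonuclease of repair and replication, lay below the level in all arrays.

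Nucleotide supply held 2 of the largest rises. Rrm2, the regulated subunit of ribonucleotide reductase, read 10.77, 10.13 and 10.35 in OVA/PM, 10.42, 9.73 and 10.44 in the OVA-labelled arrays, 7.14, 6.91 and 8.77 in the PM-labelled arrays, and 7.59, 7.43 and 7.13 in Control. The change was 3.04 in OVA/PM, or 8.21-fold (SE 0.20, adjusted p = 0.000527 from limma), and 2.81 in the OVA-labelled arrays, or 7.02-fold (SE 0.23, adjusted p = 0.0057). PM replicate 3 stood above the other PM-labelled arrays and above Control. Rrm1, the large subunit of the same enzyme, passed at 0.87 and 0.85. Tk1, the thymidine kinase of dividing cells, read 7.23, 7.01 and 6.90 in OVA/PM, 7.92, 6.87 and 7.38 in the OVA-labelled arrays, 4.34, 3.56 and 4.95 in the PM-labelled arrays, and 4.25, 4.37 and 4.24 in Control. Since all Control arrays lay under the level, its rise was at least 4.34-fold in OVA/PM (adjusted p = 0.000111 from limma) and at least 5.50-fold in the OVA-labelled arrays (adjusted p = 0.00571). Dut, which removes dUTP, passed at 0.94 and 0.88. Tyms, thymidylate synthase, was too dim to test, at 4.45, 4.08 and 5.37 in OVA/PM and 4.26, 3.66 and 4.43 in the OVA-labelled arrays, against 3.34 to 3.81 in the PM-labelled arrays and 3.39 to 3.78 in Control.

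Uhrf1 had the largest fitted change of the 48 genes. This protein recognises hemimethylated DNA behind the fork and recruits the methyltransferase Dnmt1. It read 9.33, 8.70 and 9.02 in OVA/PM, 9.17, 8.44 and 9.07 in the OVA-labelled arrays, 6.06, 5.61 and 6.13 in the PM-labelled arrays, and 5.28, 5.97 and 4.81 in Control. The change was 3.67 in OVA/PM, or 12.7-fold (SE 0.31, adjusted p = 0.00124 from limma), and 3.54 in the OVA-labelled arrays, or 11.6-fold (SE 0.34, adjusted p = 0.00741). The PM-labelled arrays overlapped with Control, at a change of 0.58 (SE 0.31, adjusted p = 0.671 from limma). Hells, a chromatin remodeller needed for DNA methylation, read 9.07, 8.31 and 8.60 in OVA/PM, 8.44, 7.86 and 8.48 in the OVA-labelled arrays, 6.60, 6.05 and 6.55 in the PM-labelled arrays, and 6.18, 6.38 and 6.09 in Control (2.45 in OVA/PM, SE 0.20, adjusted p = 0.0011 from limma, and 2.05 in the OVA-labelled arrays). Dnmt1 itself changed by 0.60 and 0.61 and passed in both. Chaf1b, the middle subunit of chromatin assembly factor 1, lay below the level, between 3.99 and 4.46 in OVA/PM and the OVA-labelled arrays and between 3.01 and 3.39 in the PM-labelled arrays and Control.

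For entry into S phase, the E cyclins and the E2F genes differed in what could be called. Ccne2 read 7.23, 6.74 and 7.08 in OVA/PM, 6.25, 6.16 and 6.71 in the OVA-labelled arrays, 4.85, 4.09 and 4.97 in the PM-labelled arrays, and 5.53, 5.06 and 4.44 in Control. It was the gene with the largest difference between OVA/PM and the OVA-labelled arrays, and these 2 groups did not overlap. Of the 41 genes tested there, 2 lay wholly higher in OVA/PM in this way. Ccne2 did not pass in that comparison, at a difference of 0.65 (adjusted p = 0.463 from limma). Its change against Control was 2.01 in OVA/PM (SE 0.28, adjusted p = 0.00622 from limma) and 1.36 in the OVA-labelled arrays (SE 0.30, adjusted p = 0.0316). Ccne1, the other E cyclin, missed in OVA/PM, where its arrays spread over 7.86, 6.87 and 6.31 (0.98, adjusted p = 0.112 from limma), and passed in the OVA-labelled arrays at 7.05, 6.65 and 7.03 (0.88, adjusted p = 0.022), against 5.79, 6.13 and 6.18 in Control, with the call lost in 4 of 6 fits with 1 array left out. E2f8, a repressor that E2F factors themselves induce, rose at least 1.75-fold in OVA/PM (adjusted p = 0.00548 from limma) and was not tested in the OVA-labelled arrays. E2f1, an activating member, did not pass (0.22 and 0.21). Brca1, of homologous recombination, read 8.04, 7.59 and 7.66 in OVA/PM, 7.47, 7.22 and 7.68 in the OVA-labelled arrays, 5.49, 5.39 and 5.77 in the PM-labelled arrays, and 5.74, 5.55 and 5.31 in Control. Its arrays split cleanly, at a change of 2.23 in OVA/PM (SE 0.17, adjusted p = 0.000747 from limma) and 1.92 in the OVA-labelled arrays.

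**Figure D2:**
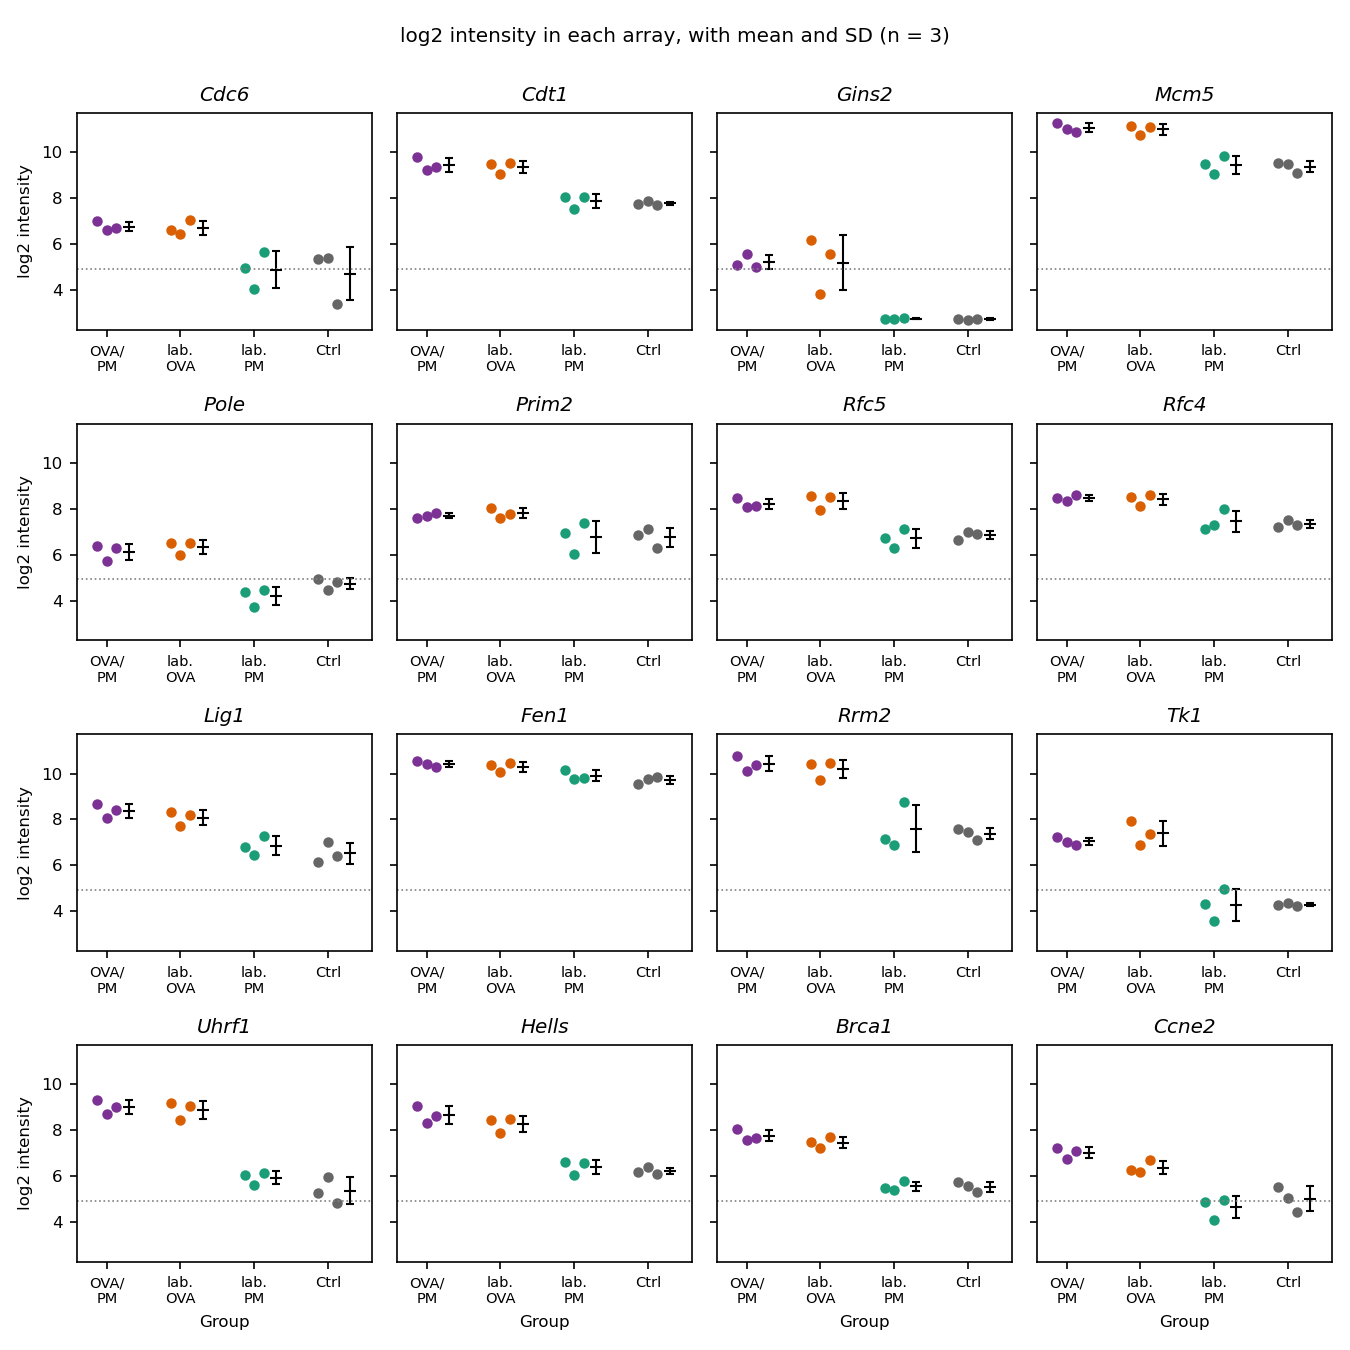
Log2 intensity of the 16 genes described per array (2 per role), with 1 point per array and a bar at the mean ± SD of 3 arrays for OVA/PM, the OVA-labelled arrays (lab. OVA), the PM-labelled arrays (lab. PM) and Control (Ctrl), and a dotted line at the test level of 4.93. Rrm2 lies between 9.73 and 10.77 in the first 2 groups and between 6.91 and 8.77 in the others. Fen1 differs by much less, and its OVA-labelled and PM-labelled arrays overlap.

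Several genes were read from probe sets whose names end in x_at, a class whose probes can match other transcripts: Mcm4, Mcm5, Pold1, Fen1, Rrm2 and Ccne1. Other probe sets of Rrm2 gave OVA/PM changes of 3.14 and 2.71, both past the threshold. That of Fen1 gave 0.995 and that of Mcm4 gave 0.68, and the second probe set of Mcm5 gave 2.12, all past it, with the remaining Mcm5 probe set too dim to test. The other probe set of Pold1 changed by 0.18 and did not pass (adjusted p = 0.352 from limma). Among genes read from other classes, the second probe set of Uhrf1 gave 2.12 and that of Cdt1 1.74, both past the threshold, whereas the further probe sets of Brca1 and Hells were too dim to test. Not all further probe sets followed. The second probe sets of Rrm1 (0.21, adjusted p = 0.342 from limma) and Rpa2 (0.11, adjusted p = 0.57) were tested and did not pass. Nor did a further probe set of Mcm3 (0.62, adjusted p = 0.068 from limma). Of all 109 probe sets of these genes, 70 were tested in OVA/PM against Control, of which 54 passed as higher and 0 as lower.

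The combination was set against each exposure alone to ask whether the 2 add up. Between OVA/PM and the OVA-labelled arrays, 0 of the 41 genes tested passed by limma, where 0.13% of all probe sets did, and the median difference was 0.02 (range -0.47 to 0.65). One gene, Ccne2, had an unadjusted p under 0.05, at 0.65 (SE 0.19, adjusted p = 0.463). The 95% interval lay within a log2 change of 1 for 37 of the 41 genes and within 0.5 for 23. Against the PM-labelled arrays, 30 of the 48 genes were higher in OVA/PM and 0 lower, where 7.13% of all probe sets tested were higher, with a median difference of 0.82. Over all 22428 probe sets tested, 1294 were lower. Cdc6, Gins2, Pole, Tk1, Ccne2 and E2f8 could be tested only through OVA/PM, and of the 34 genes at the level in all arrays 23 passed. The count of 30 fell to 18 without PM replicate 1, without PM replicate 2 or without OVA/PM replicate 1, and to 19 without OVA/PM replicate 3.

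Between the OVA-labelled arrays and the PM-labelled arrays the median difference was similar, at 0.83, with 19 genes higher in the OVA-labelled arrays and 0 lower, where 3.24% of all probe sets tested were higher. Over all 22404 probe sets tested, 439 were lower. All OVA-labelled arrays lay above all PM-labelled arrays for 37 genes, 32 of them among the 39 tested, where 17.2% of all probe sets tested did so. Of the 34 genes at the level in all arrays 15 passed, and Cdc6, Pole, Tk1 and Ccne2 could be tested only through the OVA-labelled arrays. The calls rested on few arrays: 0 genes passed without OVA replicate 1, without OVA replicate 3 or without PM replicate 2, 2 without PM replicate 1 and 3 without PM replicate 3. The interaction, the OVA/PM minus OVA-labelled difference less the PM-labelled minus Control difference, had a median of -0.03 over the 48 genes. By limma 0 of the 41 genes tested passed, where 0.0264% of all probe sets did, and 2 had an unadjusted p under 0.05, Ccne2 at 1.02 and Pold2 at -0.31 (adjusted p = 0.77 and 0.768). Its intervals were wide, with 30 of 41 genes within a log2 change of 1 and 12 within 0.5.

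**Figure D3:**
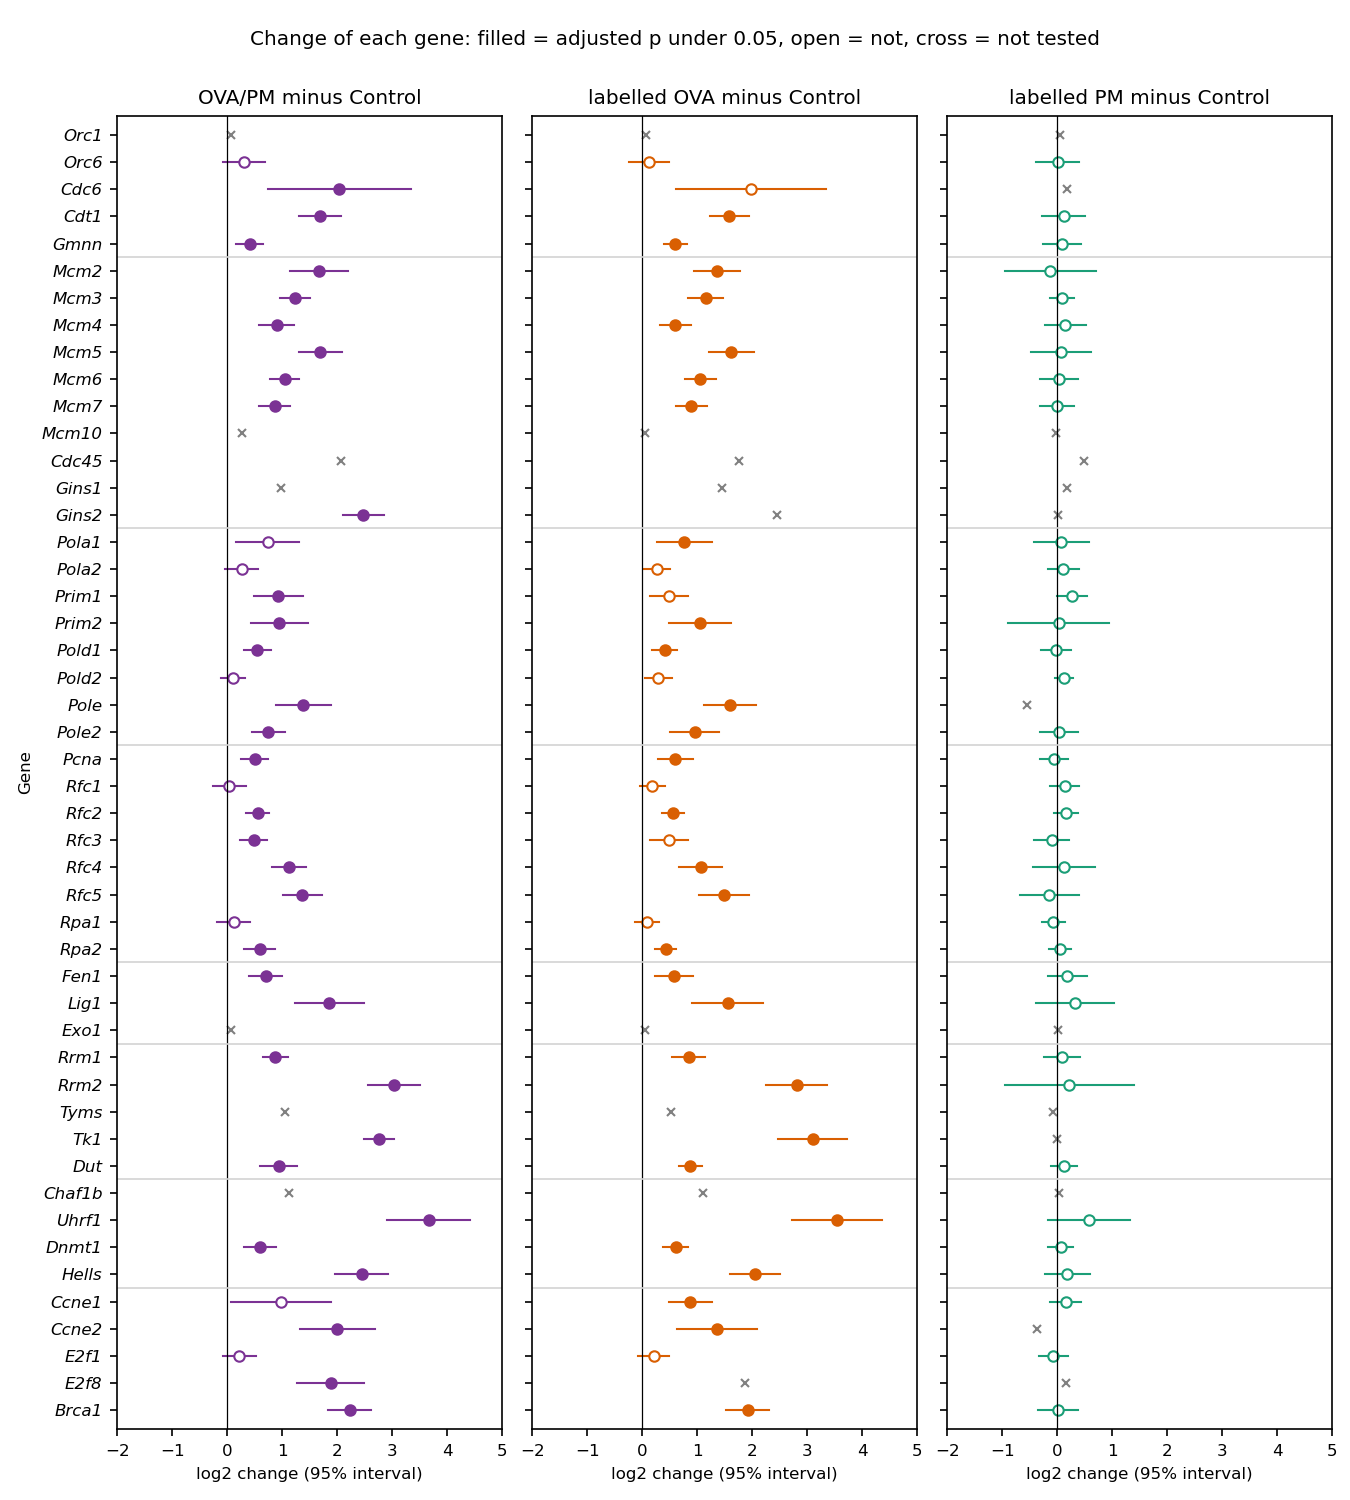
Log2 change of each gene against Control with its 95% interval (lines) in OVA/PM, in the OVA-labelled arrays and in the PM-labelled arrays, with filled points for an adjusted p under 0.05, open points for genes tested without passing and crosses for genes not tested. The filled points number 33, 30 and 0, and Uhrf1 lies farthest to the right at 3.67 and 3.54.

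The PM-labelled arrays were not alike among themselves. PM replicate 3 was the highest of the 3 for 38 of the 48 genes, PM replicate 1 for 10 and PM replicate 2 for 0. The mean over the 48 genes was 8.14, 7.89 and 7.95 in OVA/PM, 8.07, 7.69 and 8.02 in the OVA-labelled arrays, 6.92, 6.71 and 7.13 in the PM-labelled arrays, and 6.85, 6.95 and 6.76 in Control. Every OVA/PM array and every OVA-labelled array thus stood above every other array in this mean. Leaving out PM replicate 3 turned the median change of the PM-labelled arrays against Control to -0.01, and 0 genes passed there with or without it.

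Split by the E2F letters printed above, the changes overlapped. The 15 genes with the letters had a median OVA/PM change of 1.05 and 13 of them passed, while the 24 genes with a promoter that lacks them had a median of 0.94 and 13 passed. Uhrf1, Hells, Mcm5 and Cdc6 have the letters, and so does Orc1, which stayed below the level. Rrm2, Tk1 and Brca1 do not have them in this window, although the fitted change of each was over 2 on the log2 scale.

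Genes of neighbouring pathways moved to different degrees in OVA/PM against Control. Over all probe sets tested there, 10.9% passed as higher and 2450 of 22538 as lower. Calls of 1 or 2 genes in a list, here and among the cycle regulators below, are near such shares and are not read as a shift of the list. Of 34 further genes of forks and origins 10 passed as higher and 0 as lower (median 0.27), among them Dbf4, the activator of the origin-firing kinase (a change of 1.72), the nuclease Dna2 (1.56) and the checkpoint adaptor Clspn (at least 1.45-fold, with Control under the level). Of 24 other nucleotide synthesis genes 6 were higher and 2 lower (median 0.24). Dck, a deoxynucleoside salvage kinase, changed by 1.37, Nudt1, which clears oxidised nucleotides, by 0.80, and Ctps, CTP synthase, by 0.78. The 2 lower ones were Impdh1, of guanine nucleotide synthesis (-0.70), and Rrm2b, the p53-induced counterpart of Rrm2 (-0.65). Histone chaperones and supply had 5 of 7 higher (median 0.78), with the chaperone Asf1b at least 3.65-fold higher, the chromatin protein Hmgb2 at 0.98 and the histone chaperone Nasp at 0.87. In homologous recombination and mismatch repair 1 of 9 was higher, the recombination ATPase Rad54l (at least 1.68-fold), and 5 of the list lay under the level in both groups.

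Regulators of the cycle split. Among 11 other E2F and RB family genes 3 passed as higher and 1 as lower (median 0.02): Rbl1, an RB-related repressor, at 1.01, E2f3 at 0.51 and the E2F partners Tfdp1 at 0.46 and Tfdp2 at -0.68. Of 16 G1 cyclins, kinases and inhibitors 4 were higher and 1 lower (median 0.17), with Ccna2, the S phase cyclin, at 3.37, Skp2, a ubiquitin ligase subunit, at 1.04, and the inhibitor Cdkn1c at -1.02. All 17 mitosis genes passed as higher, where 10.9% of all probe sets tested did so. Their median fitted change was 3.28, or 2.36 with the 9 genes whose Control arrays lay under the level set to it. Those 9 genes could be tested only through their level in OVA/PM, which favours a difference. Cdk1, the mitotic kinase, was at least 15.4-fold higher, Aurka, a spindle kinase, at least 2.84-fold and Bub1, of the spindle checkpoint, at least 6.17-fold. DNA damage response targets of p53 gave 0 of 10 calls by limma in either direction (median -0.28). In the OVA-labelled arrays the counts of higher genes were 8 of 34, 7 of 24, 5 of 7, 1 of 9, 2 of 11, 3 of 16, 16 of 17 and 0 of 10 in the order of these lists, with 1 lower gene among the nucleotide synthesis genes and 1 among the p53 targets. Over all probe sets tested there, 8.68% passed as higher and 2373 of 22498 as lower. In the PM-labelled arrays none of these lists had a call by limma. Many of the genes could not be tested there: 7 of the 17 mitosis genes were tested. The same held for 3 of the 9 genes of recombination and mismatch repair and 26 of the 34 of forks and origins. The mean of the mitosis list in the PM-labelled arrays was 4.78, 4.60 and 5.80, with replicate 3 highest again, against 4.88, 4.82 and 4.85 in Control.

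**Figure D4:**
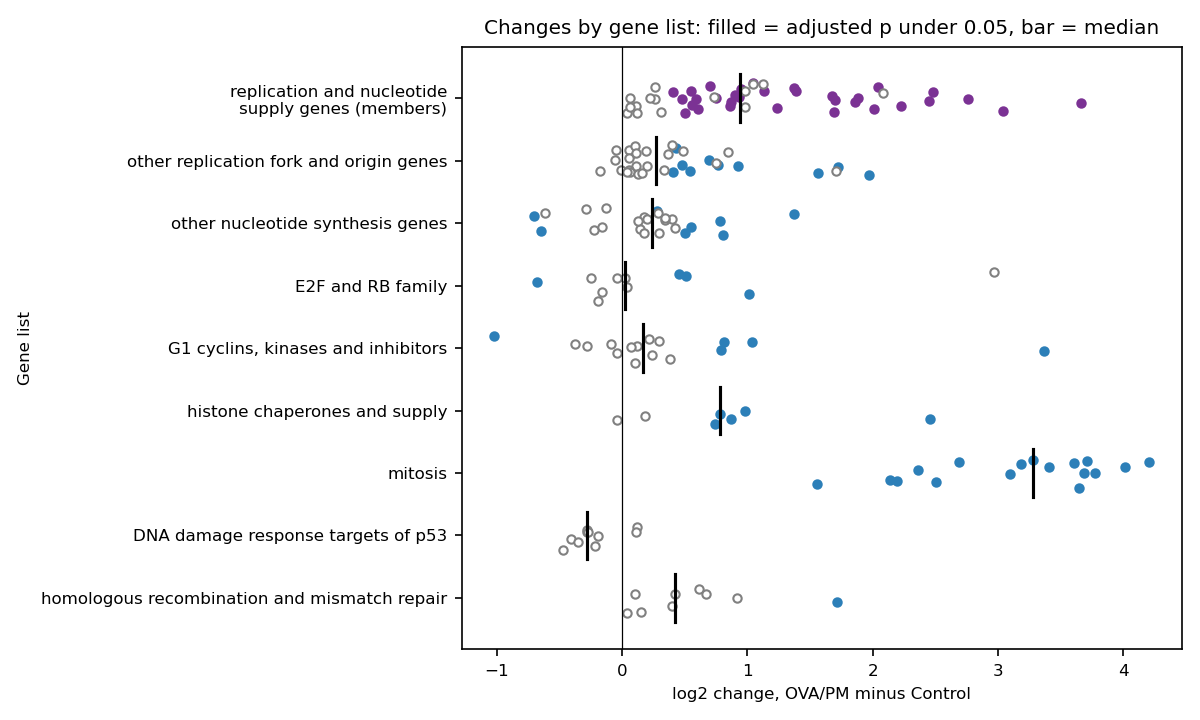
Log2 change in OVA/PM minus Control for each gene (points) of the replication and nucleotide supply genes and of 8 neighbouring lists, with filled points for an adjusted p under 0.05 and a black bar at the median of each list. The median is 0.94 for the replication genes and 3.28 for mitosis, while the p53 targets lie around -0.28 with no filled point.

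Markers of monocytes, macrophages and T cells were higher in the same groups as these genes. Over all probe sets tested, 10.9% passed as higher in OVA/PM and 8.68% in the OVA-labelled arrays. Of 10 monocyte and macrophage markers 8 were higher in OVA/PM, 7 in the OVA-labelled arrays and 0 in the PM-labelled arrays. Their summed linear intensity per array was 18488.9 to 27362.2 in OVA/PM, 17850.0 to 28881.3 in the OVA-labelled arrays, 8980.1 to 12516.6 in the PM-labelled arrays and 7912.3 to 9663.8 in Control. Of 8 T cell markers 5 were higher in OVA/PM, 4 in the OVA-labelled arrays and 0 in the PM-labelled arrays, with sums of 2338.0 to 2832.9 in OVA/PM, 2239.9 to 3050.5 in the OVA-labelled arrays, 1272.5 to 1426.5 in the PM-labelled arrays and 760.8 to 1583.6 in Control. Of 6 B and plasma cell markers 3 were higher in OVA/PM and 0 in either other group. Their sums were 17173.7 to 27220.2 in OVA/PM, 7195.6 to 9046.0 in the OVA-labelled arrays, 9046.8 to 20211.3 in the PM-labelled arrays and 3652.5 to 7525.0 in Control. Germinal centre markers had 2 of 5 higher in OVA/PM and 2 in the OVA-labelled arrays (sums of 2545.9 to 2999.3 in OVA/PM, 2218.7 to 2987.0 in the OVA-labelled arrays, 1985.1 to 2221.8 in the PM-labelled arrays and 1730.3 to 2378.8 in Control). Natural killer cell markers had 2 of 4 higher in OVA/PM and 0 in either other group. Their sums were 477.6 to 592.6 in OVA/PM and 378.0 to 440.5 in the OVA-labelled arrays. In the PM-labelled arrays they were highest, at 531.7 to 741.6, against 199.7 to 353.6 in Control. By limma 0 of 5 neutrophil markers passed in OVA/PM or in the OVA-labelled arrays, with median changes of -0.56 and -0.45, and 0 of 4 eosinophil markers, of which 1 could be tested. Neutrophil sums overlapped between all groups, at 5107.2 to 20785.2 in OVA/PM, 3254.9 to 40084.0 in the OVA-labelled arrays, 1619.2 to 7562.8 in the PM-labelled arrays and 6022.3 to 41518.1 in Control. The thymocyte genes Rag1, Rag2, Dntt and Ptcra lay between 2.30 and 3.08 in all arrays, under the test level, while of all 8 genes of that list 1 was higher in OVA/PM and 2 in the OVA-labelled arrays. The part of infiltrating cells in the rise of the replication genes was not tested.

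Markers of resident cells also differed. Over all probe sets tested, 2450 of 22538 passed as lower in OVA/PM and 2373 of 22498 in the OVA-labelled arrays, with 10.9% and 8.68% higher. Of 6 endothelial markers 5 were lower in OVA/PM and 4 in the OVA-labelled arrays, with sums of 23313.3 to 26597.6 in OVA/PM, 21682.6 to 27850.9 in the OVA-labelled arrays, 35172.6 to 36289.5 in the PM-labelled arrays and 35225.1 to 39850.9 in Control. Of 9 epithelial markers 3 were lower in OVA/PM (Sftpb at -0.47, Ager at -0.33 and Aqp5 at -0.32) and 1 higher (Foxj1 at 0.84), with 0 calls by limma in the OVA-labelled arrays. Their mean lay between 13.62 and 13.77 in every array, above the test level, as the lung label requires. Of 5 fibroblast markers 1 was higher in OVA/PM, Col1a1, and 2 in the OVA-labelled arrays, Col1a1 at 1.56 and Col1a2 at 0.72. Of 7 striated muscle genes 3 were lower in OVA/PM, where their mean was 7.54 to 9.93, against 10.91 to 12.07 in Control, and 0 in the OVA-labelled arrays (10.36 to 11.80). The part of these shifts in the values above was not tested.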

How the data were processed

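The authors deposited log2 intensities per probe set, computed with GCRMA (background correction by probe composition, quantile normalization, median polish). The processing notes also name MAS5, with no versions given. Genes were named from the array annotation through gene identifiers (34958 probe sets with 1 symbol, 932 with several, 9211 with none), and 64 control probe sets were left out, leaving 45037. Tests between groups were two-sided and used limma 3.58.1 (R 4.3.3) with empirical Bayes moderation, and p-values were adjusted (Benjamini-Hochberg) over all probe sets of a comparison. The interaction came from a fit of the 4 groups. The detection calls and SAM of the methods were not used here, and a level at the median of all values took the place of the calls. A fold is written as at least where a group had no array at that level, which then stands for the group. Per-array values are given for the 2 tested genes per role with the largest change in OVA/PM, and the 3 largest changes that passed per pathway list are named. Other genes were named after their values were seen. The genes, lists (210 of 228 list genes matched) and rules were chosen with earlier results of these data known. Alternatives were no filter, a filter at 8.65, an offset of 16, further quantile normalization, median centring, the replicate number as a block, a 4-group fit, other probe sets per gene, and leaving out each array. Code was tested on simulated data. Lavage, physiology and proteins were not analysed here.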

Additional observations from a re-analysis of the deposited data

How the results depend on the processing

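No named gene reversed under any alternative, and of 216 values of the 16 named genes in OVA/PM against Control 204 kept their side of the threshold and 12 lost it, those of Cdc6 and Prim2. In the arrays labelled OVA 166 of 205 kept it, 36 lost it and 3 gained it. The filter at 8.65 tests fewer genes and gave 16 (OVA/PM against Control), 15 (labelled OVA against Control) and 15 (OVA/PM against labelled PM) higher genes, and over all probe sets 1935 calls between labelled OVA and labelled PM and 3 in the interaction. Without a filter, 0 replication genes and 4 probe sets passed between labelled OVA and labelled PM by limma, and 2432, 6 and 10 probe sets passed in labelled OVA against Control, labelled PM against Control and OVA/PM against labelled OVA. The probe sets of next highest mean gave 16, 16, 16 and 8 genes and medians of 0.51, 0.45, 0.58 and 0.45 (OVA/PM against Control, labelled OVA against Control, OVA/PM against labelled PM, labelled OVA against labelled PM). The mean of all probe sets gave medians of 0.70, 0.63 and 0.61 (OVA/PM against Control, labelled OVA against Control, labelled OVA against labelled PM), and the offset of 16 a median of 0.64 in the last of these. The fit of all 4 groups passed 31 genes and 3300 probe sets between labelled OVA and labelled PM, and 38 probe sets in labelled PM against Control. The cause of these shifts was not tested.

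The replicate numbers did not pair the arrays: deviations from the group means correlated over 0.1 in 3 of 18 same-numbered pairs, at a median of -0.06, and an array of its own number was the closest one for 2 of 12 arrays. With the number as a replicate block, labelled OVA against Control had 1 gene and 89 probe sets, labelled PM against Control 4 probe sets, OVA/PM against labelled PM 1377 and labelled OVA against labelled PM 711, while OVA/PM against Control kept 28 genes.

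Leaving out 1 array gave 26 to 32 genes in OVA/PM against Control, 10 to 34 in labelled OVA against Control, 18 to 25 in OVA/PM against labelled PM and 0 to 25 in labelled OVA against labelled PM, and 0 in the remaining comparisons. Medians ranged over 0.79 to 1.01, 0.82 to 0.999, 0.72 to 0.93 and 0.72 to 0.95 in the same order, -0.01 to 0.14 in labelled PM against Control, -0.05 to 0.11 in OVA/PM against labelled OVA and -0.14 to 0.07 in the interaction. Probe sets called ranged over 2188 to 4491, 407 to 5284, 1367 to 1870 and 4 to 3587 in the first order, 3 to 11 in labelled PM against Control, 9 to 63 in OVA/PM against labelled OVA and 4 to 11 in the interaction. With 3 arrays a group, the median half-width of an interval over the 35 replication genes tested in labelled PM against Control was about 0.35 on the log2 scale. These intervals are not adjusted for the number of probe sets, so a call needed more than that width. Larger changes could miss the threshold there. Gzma, a natural killer cell marker, changed by 1.60 (adjusted p = 0.129 from limma) and Sesn2, a p53 target, by -0.55 (adjusted p = 0.581). The lack of calls there does not exclude changes above 0.35 in single genes.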
